A study of Mus musculus with 28 samples.

Results

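Retinoic acid is the vitamin A derivative that starts differentiation of spermatogonia and entry into meiosis in the testis, and 10 mouse genes for its synthesis, breakdown, uptake and reception are described here by the histone mark H3K27ac. Every H3K27ac peak listed under the symbol Aldh1a1, Aldh1a2, Aldh1a3, Cyp26a1, Cyp26b1, Rara, Rarb, Rarg, Rxra or Stra6 was taken, which gave 830 peaks of 471458 over 12 libraries. A promoter peak was one within 1 kb of a transcription start listed under that symbol alone, and 17830 genes had such a start. Starts were read from the H3K27ac peaks themselves, so each of these 17830 genes had a peak in some library. Shares over them are shares of genes with a peak, not of all mouse genes. Of the 10 genes, 9 had a peak somewhere, and Cyp26a1 had none.

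H3K27ac, an acetylation of histone H3 that marks promoters and enhancers in use, was mapped by ChIPmentation, in which a transposase adds the sequencing adapters during chromatin immunoprecipitation. Germ cells came from testes of C57BL/6 mice, by sedimentation (STA-PUT) or magnetic sorting (MACS), in 6 groups of 2 replicates. Thy1+ spermatogonia, which include the undifferentiated cells, and c-Kit+ spermatogonia, which are differentiating, were taken at postnatal day 7 from wild type (WT) mice and from mice with a knockout of Scml2 (Scml2-KO, here KO), a gene for a germ cell Polycomb protein. Pachytene spermatocytes (PS) and round spermatids (RS) came from adult KO mice. The H3K27ac libraries of WT PS and RS were not analysed here, so meiotic and later stages are described in KO cells only and stage went with age. The labels do not say how Scml2 was disrupted or whether replicates came from separate animals, so p-values measure the spread between these libraries, which may be technical. H3K27ac peaks do not check the genotype labels.

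As background, retinol enters cells through the receptor STRA6 and is oxidised to retinaldehyde and then, by the ALDH1A enzymes, to retinoic acid. CYP26 enzymes break retinoic acid down. The acid binds a retinoic acid receptor (RARA, RARB or RARG) that is paired with a retinoid X receptor such as RXRA, and the pair sits on DNA at response elements built of repeated half-sites. In the mouse testis, ALDH1A1 is known from Sertoli cells, the somatic support cells, and ALDH1A2 from spermatocytes and spermatids.

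Promoter windows of 300 bases, from 250 before to 50 after a RefSeq start (GRCm38.p6, the build to which mm10 belongs), were at hand for 9 of the 10 genes. The classical response element DR5, a direct repeat of half-sites with a spacer of 5 bases, was searched on both strands. It was in 0.323% of all 32851 windows, and among the 18 windows of the 10 genes it was in that of Rarb and that of Cyp26a1. The Rarb element at chr14:16575513-16575529 lay 53 to 37 bases before the start on the gene's own strand. That of Cyp26a1 at chr19:37697776-37697792 lay 32 to 16 bases before the start on the other strand. These windows are printed because they hold the element in genes with 1 and 0 promoter peaks (5′ to 3′ on the gene's strand, DR5 in capitals; Rarb chr14:16575427-16575726, minus strand; Cyp26a1 chr19:37697558-37697857, plus strand).
Rarb: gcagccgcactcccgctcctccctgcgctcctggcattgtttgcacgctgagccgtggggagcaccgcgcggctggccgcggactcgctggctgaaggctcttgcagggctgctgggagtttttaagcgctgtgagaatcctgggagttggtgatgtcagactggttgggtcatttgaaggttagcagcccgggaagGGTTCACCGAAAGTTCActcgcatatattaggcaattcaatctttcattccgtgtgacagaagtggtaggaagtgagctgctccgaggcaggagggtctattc
Cyp26a1: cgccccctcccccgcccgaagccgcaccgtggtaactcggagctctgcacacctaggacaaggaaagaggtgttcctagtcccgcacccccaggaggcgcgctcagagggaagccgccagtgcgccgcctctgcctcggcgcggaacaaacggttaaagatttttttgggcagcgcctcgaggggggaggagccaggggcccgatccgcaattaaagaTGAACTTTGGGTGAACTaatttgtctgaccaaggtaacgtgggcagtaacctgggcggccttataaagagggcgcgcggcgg

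The windows below are those of starts whose peaks carry the results by stage, with every CG dinucleotide in capitals (all on the plus strand; Aldh1a2 chr9:71215539-71215838, Rara first start chr11:98937446-98937745, Rxra first start chr2:27676951-27677250, Rxra inner start chr2:27709042-27709341, Aldh1a1 chr19:20601718-20602017).
Aldh1a2: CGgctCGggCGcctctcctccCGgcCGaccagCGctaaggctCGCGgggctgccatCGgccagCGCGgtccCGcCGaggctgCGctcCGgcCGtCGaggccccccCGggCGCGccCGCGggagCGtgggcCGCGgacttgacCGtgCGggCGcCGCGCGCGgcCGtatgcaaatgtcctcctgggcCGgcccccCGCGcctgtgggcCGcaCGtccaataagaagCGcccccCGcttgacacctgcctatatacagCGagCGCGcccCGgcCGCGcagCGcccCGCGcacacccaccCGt
Rara first start: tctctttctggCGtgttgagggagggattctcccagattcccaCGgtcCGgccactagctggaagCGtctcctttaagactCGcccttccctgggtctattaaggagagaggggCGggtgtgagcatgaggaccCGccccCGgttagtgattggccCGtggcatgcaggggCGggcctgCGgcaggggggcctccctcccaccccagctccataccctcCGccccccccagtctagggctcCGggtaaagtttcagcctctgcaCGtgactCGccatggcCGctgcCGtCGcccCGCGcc
Rxra first start: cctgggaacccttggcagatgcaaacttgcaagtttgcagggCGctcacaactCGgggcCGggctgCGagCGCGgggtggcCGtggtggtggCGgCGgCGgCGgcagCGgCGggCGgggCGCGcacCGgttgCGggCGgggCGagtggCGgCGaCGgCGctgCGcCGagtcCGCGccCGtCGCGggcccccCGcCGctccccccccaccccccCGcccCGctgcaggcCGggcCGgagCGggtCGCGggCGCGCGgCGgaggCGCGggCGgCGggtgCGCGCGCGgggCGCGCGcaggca
Rxra inner start: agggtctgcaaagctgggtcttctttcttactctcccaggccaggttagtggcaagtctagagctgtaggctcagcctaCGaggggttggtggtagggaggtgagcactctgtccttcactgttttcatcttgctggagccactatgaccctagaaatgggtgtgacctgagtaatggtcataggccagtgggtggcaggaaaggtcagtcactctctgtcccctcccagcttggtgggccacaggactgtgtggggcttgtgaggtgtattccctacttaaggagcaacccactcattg
Aldh1a1: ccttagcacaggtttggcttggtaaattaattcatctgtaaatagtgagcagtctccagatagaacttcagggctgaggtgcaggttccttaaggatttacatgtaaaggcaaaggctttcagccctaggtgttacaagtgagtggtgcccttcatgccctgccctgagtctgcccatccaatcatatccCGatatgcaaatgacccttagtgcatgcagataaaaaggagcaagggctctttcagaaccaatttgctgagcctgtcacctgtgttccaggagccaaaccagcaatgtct
Aldh1a2 held 50 CG dinucleotides and the Rxra first start 55, Rara 20, and the Rxra inner start and Aldh1a1 1 each, beside a median of 7 over all windows. The first 3 of these windows belong to starts with a peak in every H3K27ac library, and the CG-poor ones to starts with a peak in 4 (Rxra inner) and 7 (Aldh1a1) libraries. The windows of Cyp26a1, with 26, and Rarb, with 17, also held more than the median, in genes with 0 and 1 promoter peaks. So did the Rara start chr11:98937718, with 21 and a peak in 12 libraries. The Rarg starts, with 10 and 12, had a peak in 12 and 11 libraries. Cyp26b1, with 9, and the Stra6 start chr9:58129349, with 10, had no peak in any library. Below the median, the Rara starts chr11:98939711, with 5, and chr11:98964872, with 6, had a peak in 10 libraries each. Stra6 starts with 5 had one in 0 or 1 libraries, and a farther Aldh1a1 start with 3 had one in 3. The half-site AGGTCA was in 16.3% of all windows and occurred in windows of Rara, Rarg and Rxra, where it lay before the inner Rxra start on both strands, and the half-site AGTTCA was in 14% and occurred in windows of Rara, Rarb, Cyp26a1 and Stra6. A match describes letters only, and no binding was measured.

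Libraries held 17877 to 73316 peaks, with at most 36362 in spermatogonia and at least 63322 in adult cells, and the 10 genes took 0.145 to 0.231% of them. The 16 input libraries held 359 to 1192 peaks each. In them 1 peak of Cyp26b1 and 3 of Rxra were listed, none at a promoter. The value used throughout is the deposited fold enrichment over a uniform background, and read depth is unknown. Thy1+ KO replicate 1 stood apart from the other Thy1+ libraries: its median log2 fold was 4.02 against 2.97 to 3.26 over the regions they shared. In bulk libraries a larger share of cells with the mark and more of the mark per cell cannot be told apart. Sorted stages were checked against marker promoters. All 8 spermatocyte markers had a promoter peak in every adult library, and 7 of 8 round spermatid markers did, also in PS, against at most 1 in any spermatogonial library. Spermatocyte markers were called at 1 to 5 of 8 in spermatogonial libraries. Markers of spermatogonia did not single out the spermatogonial libraries: undifferentiated markers were called at 2 of 8 in Thy1+ WT (summed fold 13.6 to 15.1) and 3 to 4 in PS (49.2 to 55.98), and differentiating markers at 2 of 6 in c-Kit+ WT, 3 to 6 in PS and 4 to 5 in RS.

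Promoter peaks were called in every library for some of the genes and in some or no libraries for the others (plot of promoter fold enrichment by gene). Of 120 gene and library pairs, 58 (48.3%) had a promoter peak, beside 65.1% of such pairs over all 17830 genes. Starts were read from the peaks, so Cyp26a1, which no peak named, had no listed start. All 17830 genes had a start, and so a peak in some library. The shares of the 10 genes given here count Cyp26a1 as unmarked. Aldh1a2, Rara, Rarg and Rxra had one in all 12 libraries, 4 of 10 genes beside 49.1% of the 17830 genes. Aldh1a1 had one in 7 libraries, Aldh1a3, Rarb and Stra6 in 1, and Cyp26b1 and Cyp26a1 in none. The single promoter peaks of Aldh1a3 (fold 4.56), Rarb (4.05) and Stra6 (4.05) were all in Thy1+ KO replicate 1. Without that library 45.5% of pairs had a promoter peak, and these 3 genes had none.

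**Figure D1:**
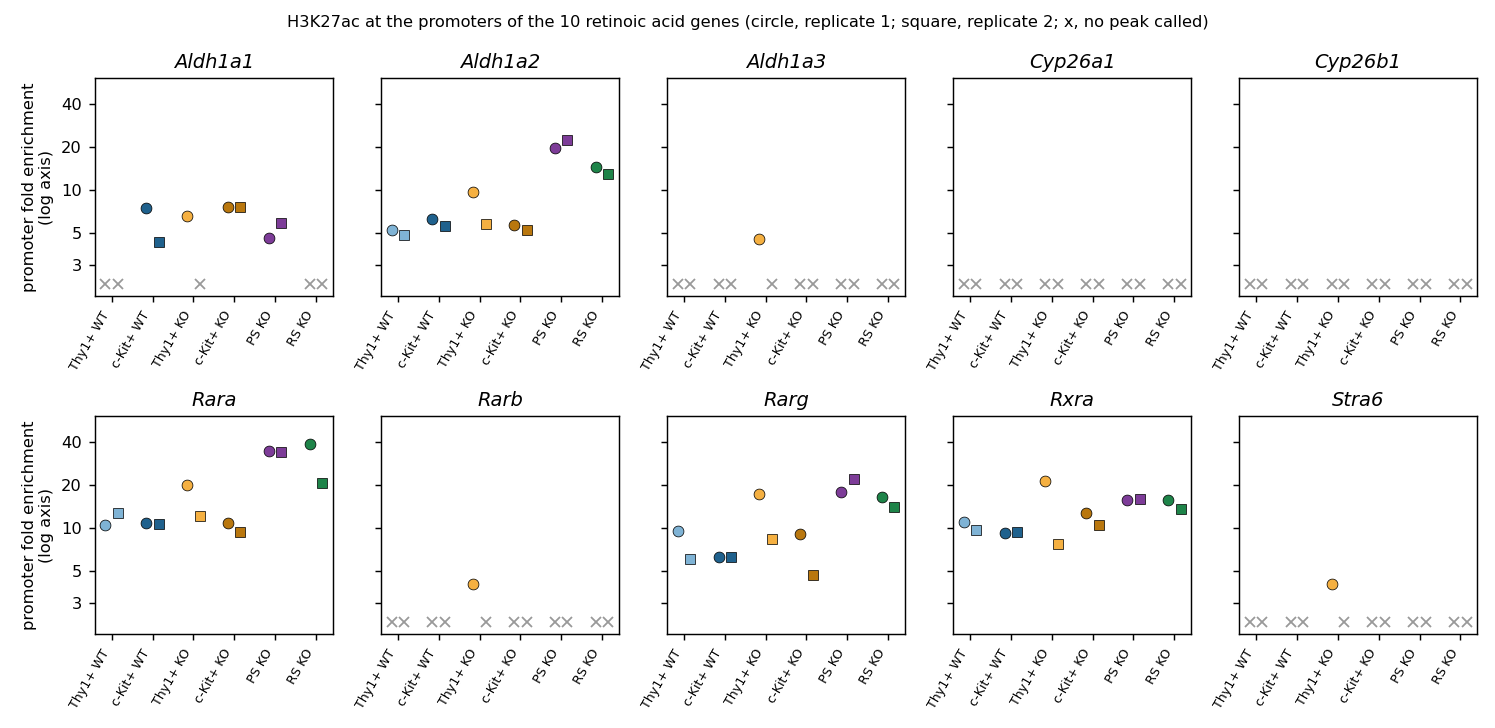
Promoter fold enrichment (log axis) of the 10 genes in each of the 12 H3K27ac libraries, by group; circles are replicate 1, squares replicate 2 and crosses libraries with no promoter peak, drawn below the lowest fold. Aldh1a2 and Rara lie higher in the 4 adult libraries than in all 8 spermatogonial libraries, and Aldh1a3, Rarb and Stra6 have a point in Thy1+ KO replicate 1 alone. Folds are before centring, where 23.1% of 9299 genes separate this way over the KO libraries. The Rara points of PS and RS replicate 1 are summits 4.8 to 4.9 kb inside the gene. Within 1 kb of its first start Rara has 20.6 to 28.3 in adult and 9.33 to 19.7 in spermatogonial libraries.

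Among the enzymes that make retinoic acid, Aldh1a2 had 1 promoter region, at chr9:71214413-71217029. Its fold enrichment, replicate 1 then 2, was 5.24 and 4.83 in Thy1+ WT, 6.27 and 5.58 in c-Kit+ WT, 9.62 and 5.76 in Thy1+ KO and 5.67 and 5.25 in c-Kit+ KO cells. It was 19.4 and 22.4 in PS and 14.5 and 13.0 in RS. All 4 adult libraries were thus above all 8 spermatogonial ones, with PS above RS and no overlap. Over the KO libraries, adult values averaged 17.3 ± 4.37 (SD, n = 4) and spermatogonial values 6.57 ± 2.04 (SD, n = 4). Promoter folds before centring were separated in this direction over the KO libraries for 23.1% of 9299 genes. Aldh1a2 rose by a log2 change of 0.73 (SE 0.13) in adult against spermatogonial KO cells relative to the median region (limma, adjusted p = 0.00047), and by 0.73 without Thy1+ KO replicate 1. From c-Kit+ KO to PS the change was 0.86 (SE 0.20; limma, adjusted p = 0.0053), but without c-Kit+ KO replicate 2 it was 1.04 and did not pass. From PS to RS it was -0.41 (SE 0.19; limma, adjusted p = 0.17). Only 2 other regions carried its name, each in 1 library.

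Aldh1a1 was marked in another set of libraries. Its promoter region, at chr19:20601066-20602838, had folds of 7.41 and 4.34 in c-Kit+ WT, 7.57 and 7.58 in c-Kit+ KO, 4.58 and 5.86 in PS, and 6.58 in Thy1+ KO replicate 1. No promoter peak was called in Thy1+ WT or in Thy1+ KO replicate 2. In RS no Aldh1a1 peak was called at all. From c-Kit+ KO to PS it fell by 1.62 on the log2 scale relative to the median region (SE 0.21; limma, adjusted p = 0.00030), and both c-Kit+ KO values were above both PS values. Without centring the change was -0.55 and did not pass the test, and without c-Kit+ KO replicate 2 it was -1.39 and did not pass. Markers of Sertoli cells had promoter peaks at 7 of 9 in both PS libraries (summed fold 56.8 to 74.1), 1 to 6 in c-Kit+, 1 to 4 in Thy1+ and 3 in RS libraries (13.5 to 16.8). The 7 libraries with an Aldh1a1 promoter peak had 1 to 7 of these markers, and those without had 1 to 4. Of the former, c-Kit+ KO replicate 2, with an Aldh1a1 fold of 7.58, had 1 (summed fold 9.91). Leydig cell markers had 5 of 7 in PS, 3 to 5 in c-Kit+, 1 to 3 in Thy1+ and 2 in RS libraries. Over all 26 somatic markers the count was 15 to 16 in PS (summed fold 114 to 134), 5 to 14 in c-Kit+ (35.0 to 89.9), 6 to 13 in Thy1+ (36.2 to 102) and 11 to 12 in RS (64.4 to 80.2), while Rhox5, Cyp17a1, Hsd3b1 and Adgre1 had no promoter peak in any library. Of 5 macrophage and blood markers, 4 had one in both RS libraries, 1 to 2 in PS and Thy1+ KO and 0 in the other groups. The part of somatic cells in the Aldh1a1 peaks was not tested.

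Aldh1a3 had no promoter peak outside Thy1+ KO replicate 1 and was marked mainly inside the gene. A region centred 21.5 kb downstream of its start, at chr7:66404742-66407176, was called in 9 libraries, with folds of 6.62 and 5.83 in c-Kit+ KO, 6.86 and 8.53 in PS and 3.79 in RS replicate 2. Both PS values were above both c-Kit+ KO values before centring. The change from c-Kit+ KO to PS was -0.78 relative to the median region (SE 0.20; limma, adjusted p = 0.0094) but 0.30 without centring, so its direction depended on the scaling.

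For the breakdown enzymes, Cyp26a1 had no peak in any library, and none lay within 1 kb of its RefSeq start under another name. Cyp26b1 had no promoter peak but 39 regions inside and outside the gene, of which 26 were called in 1 library. Cyp26b1 had 24 regions called only in spermatogonial and 12 only in adult libraries, where all 129187 regions of the 12 libraries had 16.3% and 62.3%. These counts rest largely on single libraries. Replicates 1 and 2 held 18 and 7 Cyp26b1 peaks in c-Kit+ WT, 23 and 7 in c-Kit+ KO, and 20 and 9 in RS. PS libraries held 3 each and Thy1+ libraries 0 to 4. Its most widely called region, chr6:84585974-84588481, lies 5329 bp from the nearest start over exon and intron. Folds there were 7.41 and 6.82 in c-Kit+ WT, 3.54 and 5.12 in Thy1+ KO, 7.57 and 5.25 in c-Kit+ KO, 4.19 and 5.33 in PS and 4.69 and 3.25 in RS, with no peak in Thy1+ WT. The values of c-Kit+ KO and PS overlapped before centring, and both c-Kit+ WT values lay above all 4 adult values. Relative to the median region it fell by 1.49 on the log2 scale from c-Kit+ KO to PS (SE 0.20; limma, adjusted p = 0.00032) and by 0.95 in adult against spermatogonial KO cells (SE 0.21; limma, adjusted p = 0.0023), calls that ended without centring (-0.41 and -0.27). Another intronic region, chr6:84582458-84583372, rose from folds of 4.19 and 3.20 in PS to 5.87 and 9.20 in RS (log2 change 1.20, SE 0.31; limma, adjusted p = 0.024), a call that ended with quantile normalization (1.08) and without any library but RS replicate 1. No peak was called at either Cyp26b1 start in any library. Of its regions 13 lay over exon or intron and 26 were intergenic, 23412 to 100024 bp from the nearest start.

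Stra6, the retinol receptor, had 8 peaks in 4 libraries, all of them spermatogonial. Its only region called in more than 1 library was in an intron, chr9:58143518-58143776, with folds of 4.56 and 4.34 in c-Kit+ WT. The highest Stra6 fold in any library was 5.13.

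Among the receptors, Rara was marked at its first start in every library and along more of the gene in adult than in spermatogonial libraries (plot of Rara summits). The first region, chr11:98935962-98946553, covers 3 of the 4 listed starts. Its highest fold was 13.6 and 12.7 in Thy1+ WT, 13.1 and 10.5 in c-Kit+ WT, 19.7 and 12.2 in Thy1+ KO, 14.2 and 9.33 in c-Kit+ KO, 34.3 and 34.1 in PS and 38.3 and 29.8 in RS. The lowest adult value was above the highest spermatogonial value. Over the KO libraries 23.1% of 9299 genes had promoter folds separated in this direction before centring. Rara rose by 0.67 on the log2 scale in adult against spermatogonial KO cells (SE 0.12; limma, adjusted p = 0.00062), and by 0.66 without Thy1+ KO replicate 1. From c-Kit+ KO to PS the change was 0.50 (SE 0.19; limma, adjusted p = 0.068).

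Within that region Rara had separate summits at the start and 3521 to 6217 bp inside the gene, a division chosen after the values were seen. At the start (within 1 kb) the highest summit was 9.33 to 19.7 in spermatogonia, 26.7 and 28.3 in PS and 21.9 and 20.6 in RS. At the inner cluster it was 8.68 to 19.7, 34.3 and 34.1, and 38.3 and 29.8. The 4 adult libraries were each higher at the inner cluster than at the start. The second Rara region, chr11:98958905-98965780, over the start that lies farthest into the gene, had folds of 6.62 and 5.83 in c-Kit+ KO, 17.9 and 20.3 in PS and 16.8 and 9.74 in RS. It rose by 0.54 from c-Kit+ KO to PS (SE 0.19; limma, adjusted p = 0.047), a call that ended with quantile normalization (0.64) and whenever 1 library was left out (0.49 to 0.69). An intron region, chr11:98953378-98956225, fell from 13.3 and 17.6 in PS to 7.82 and 5.41 in RS (log2 change -1.04, SE 0.21; limma, adjusted p = 0.012). Peaks covered 10.4 to 42.5% of the Rara gene in spermatogonia, 68.7 to 78.4% in PS and 55.6 to 68.7% in RS, where libraries also held more peaks genome-wide.

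**Figure D2:**
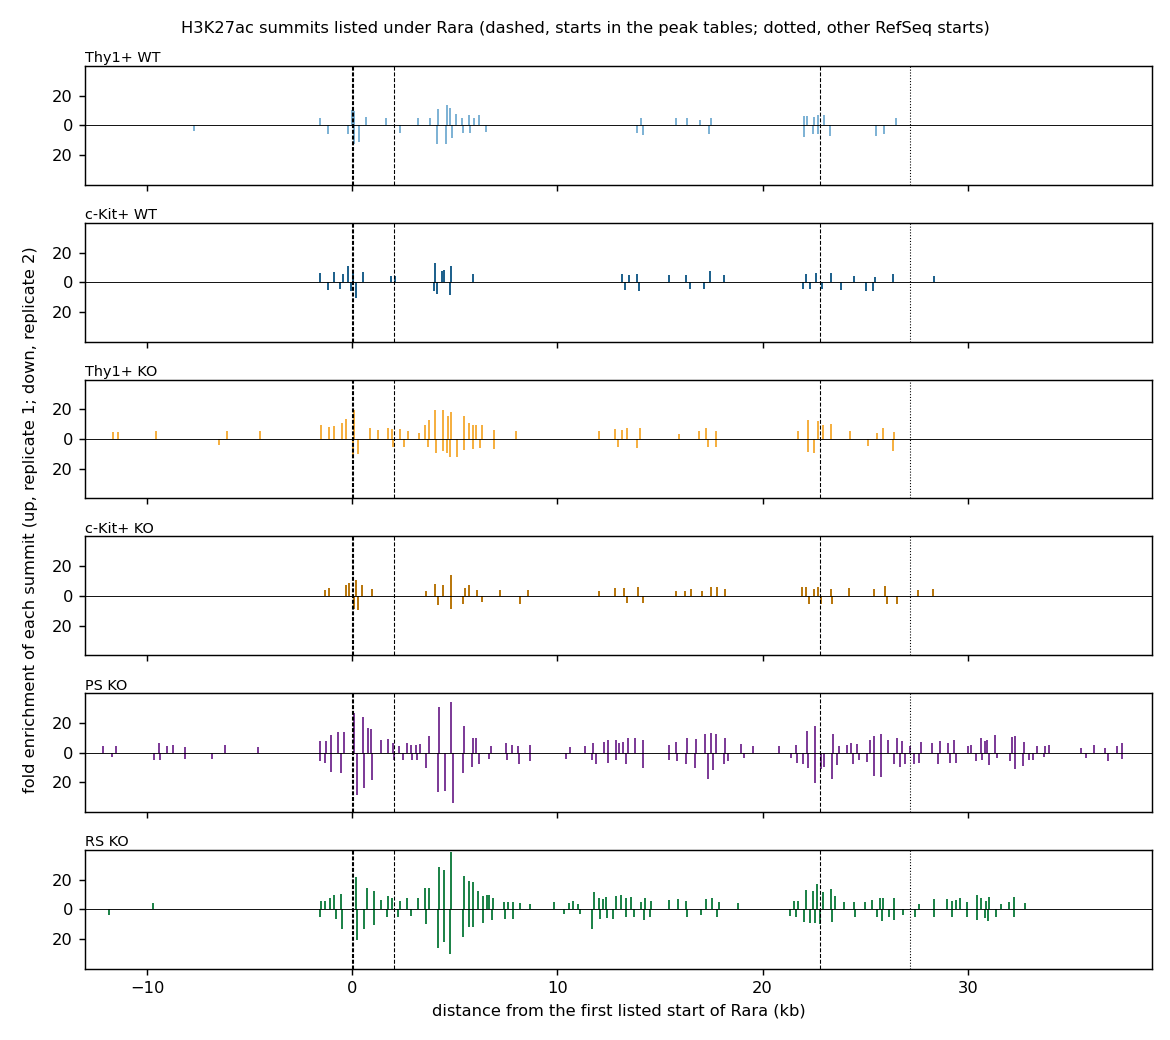
Fold enrichment of every summit listed under Rara against distance from its first listed start in kb, with replicate 1 drawn upward and replicate 2 downward, 1 panel per group; dashed lines are listed starts and dotted lines other RefSeq starts. The tallest summits in PS and RS, 34.1 to 38.3 in 3 of the 4 libraries and 29.8 in RS replicate 2, stand inside the gene and not at the start. Those of replicate 1 in Thy1+ WT, c-Kit+ WT and c-Kit+ KO stand inside the gene too.

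Rxra, the partner receptor, had 82 regions, the most of the 10 genes, of which 53 were called only in adult and 5 only in spermatogonial libraries, beside 62.3% and 16.3% of all 129187 regions. Its promoter region had folds of 11.004 and 9.65 in Thy1+ WT, 9.12 and 9.30 in c-Kit+ WT, 21.3 and 7.67 in Thy1+ KO, 12.8 and 10.5 in c-Kit+ KO, 15.6 and 15.99 in PS and 15.6 and 13.5 in RS. Thy1+ KO replicate 1 was above every adult library, so adult and spermatogonial values overlapped. Without that library the lowest adult value, 13.5, was above the highest spermatogonial one, 12.8. The share of all genes that separate without that library was not counted. In adult against spermatogonial KO cells the Rxra promoter region changed by -0.36 relative to the median region (SE 0.15; limma, adjusted p = 0.073). That change had the other sign without centring. From c-Kit+ KO to PS the Rxra promoter, chr2:27676092-27680967, changed by -0.63 relative to the median region (SE 0.19; limma, adjusted p = 0.022) but by 0.45 without centring, and both PS values were above both c-Kit+ KO values before centring. From PS to RS it changed by 0.07 (SE 0.19; limma, adjusted p = 0.82), and by -0.12 without centring.

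Inside Rxra the mark differed between PS and RS at several introns (plot of Rxra summits). The region chr2:27686446-27691730, centred 11.9 kb inside the gene, rose from folds of 4.58 and 4.27 in PS to 12.5 and 10.8 in RS (log2 change 1.59, SE 0.19; limma, adjusted p = 0.0079). Input peaks lay within this Rxra region in RS WT replicate 2 (fold 4.40) and c-Kit+ KO replicate 2 (4.12), and their part in the H3K27ac values was not tested. The region chr2:27726559-27730949 rose from 4.19 and 3.20 to 10.95 and 7.03 (1.45, SE 0.23; limma, adjusted p = 0.0079). These and the other calls between PS and RS ended without PS replicate 2, where they were 1.40 and 1.12. Both RS values were above both PS values in each. The inner RefSeq start printed above lies in chr2:27708129-27712131, where folds were 9.91 and 7.46 in PS and 14.1 and 11.9 in RS (0.78, SE 0.22; limma, adjusted p = 0.034), a call that ended without centring (0.59). No spermatogonial library had a peak within 1 kb of that inner start. The adjoining chr2:27731013-27734318 rose by 0.64 (limma, adjusted p = 0.042; 0.45 and not called without centring). Other parts moved the other way. The region chr2:27743029-27746262 fell from 9.15 and 9.06 in PS to 5.08 and 3.25 in RS (-0.97, SE 0.21; limma, adjusted p = 0.014). Peaks covered 1.90 to 19.1% of the Rxra gene in spermatogonia, 18.7 to 31.0% in PS and 34.1 to 54.0% in RS.

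Upstream of Rxra, the region chr2:27559413-27562189, 115012 bp from the start, was called in all 4 adult and no spermatogonial libraries. It fell from folds of 16.02 and 17.1 in PS to 4.30 and 5.95 in RS (log2 change -1.51, SE 0.26; limma, adjusted p = 0.0088), and both PS values were above both RS values. The region chr2:27538830-27541531, 135670 bp from the start, was called in all 12 libraries with folds of 11.1 to 22.1. It is listed under Rxra and overlaps the RefSeq genes Gm13421 and Gm25541. In adult against spermatogonial KO cells its change was -0.58 relative to the median region (SE 0.15; limma, adjusted p = 0.0066) and 0.10 without centring. The intron region chr2:27749501-27750816 changed by -0.88 in that comparison (SE 0.18; limma, adjusted p = 0.00125), and by -0.20 without centring and -0.31 with quantile normalization, neither of them called. The 3 longest regions called in both PS libraries and in no other group were all intergenic regions upstream of Rxra, the longest at chr2:27625940-27627280 with folds of 5.34 and 5.86.

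**Figure D3:**
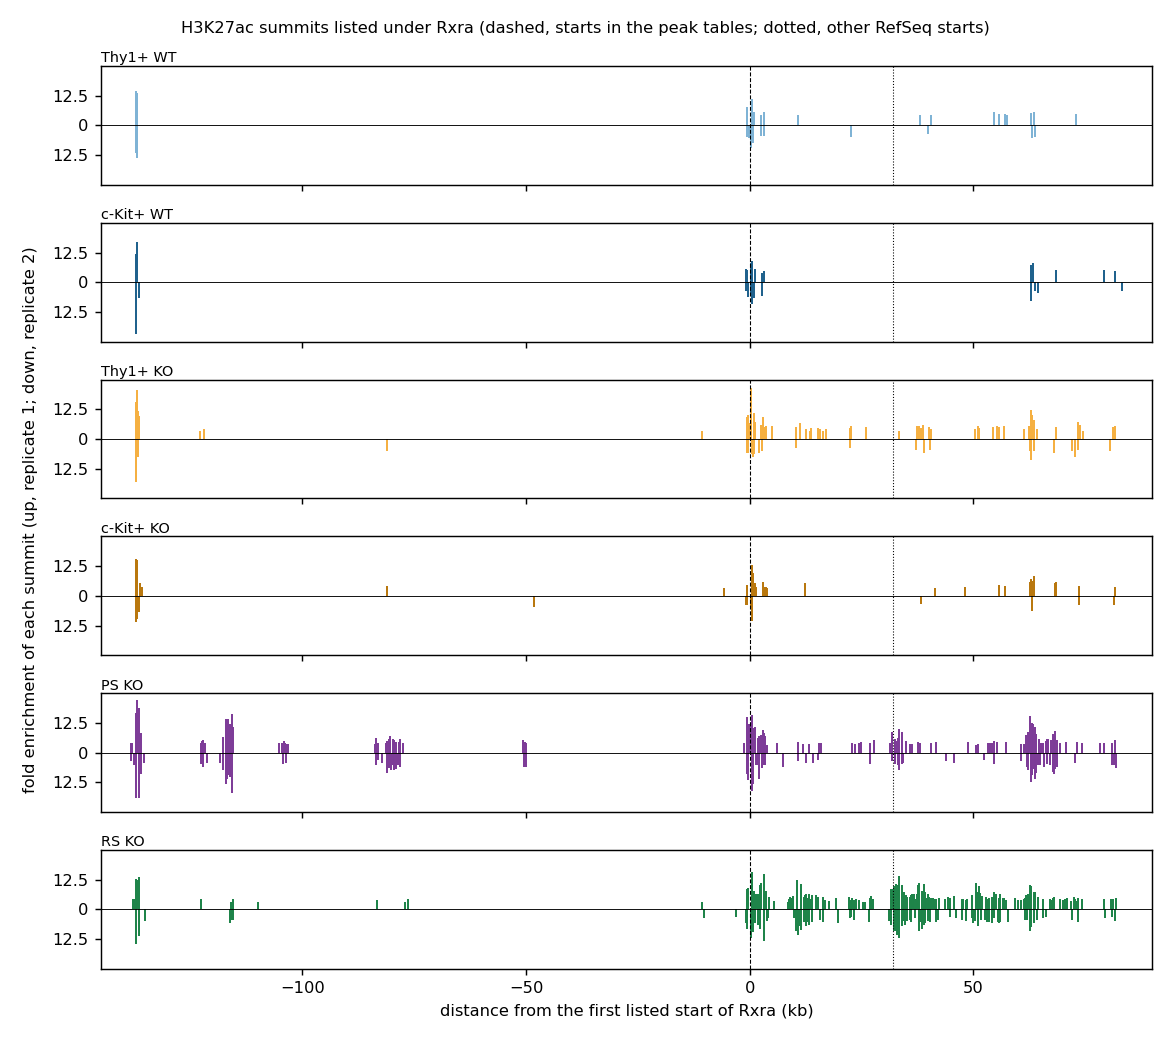
Fold enrichment of every summit listed under Rxra against distance from its first listed start in kb, with replicate 1 upward and replicate 2 downward, 1 panel per group; the dashed line is the listed start and the dotted line the inner RefSeq start. The cluster near -116 kb is tall in PS (16.02 and 17.1) and low in RS (4.30 and 5.95), and peaks cover 34.1 to 54.0% of the gene in RS against 18.7 to 31.0% in PS.

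Rarg, the receptor with a known role in spermatogonial differentiation, was marked at both listed starts. The stronger region, chr15:102245183-102248291, lies at the start farther into the gene and had highest folds of 9.43 and 6.03 in Thy1+ WT, 6.27 and 6.20 in c-Kit+ WT, 17.2 and 8.31 in Thy1+ KO, 8.99 and 9.33 in c-Kit+ KO, 17.9 and 21.9 in PS and 16.4 and 14.1 in RS. Over the whole region Thy1+ KO replicate 1 lay among the adult values, and without it the 4 adult values were above the spermatogonial ones. In every library but c-Kit+ WT replicate 1 and Thy1+ KO replicate 2, these highest folds came from summits more than 1 kb from that listed start. Within 1 kb of the start the highest summit was 10.3 and 11.2 in PS and 9.00 and 9.20 in RS. In spermatogonia it was 4.66 to 8.61, below the adult values before centring. Within 1 kb of the nearby RefSeq start chr15:102246500, c-Kit+ KO replicate 1 had 8.985 and RS replicate 1 8.996. The share of all genes separated by this measure, or without Thy1+ KO replicate 1, was not counted. The Rarg change in adult against spermatogonial KO cells was 0.05 (SE 0.14; limma, adjusted p = 0.79), so Rarg did not differ from the median region beyond its error. Without centring it was 0.73 and passed the test. The upstream start, at chr15:102256692-102258092, had a peak in 11 libraries with folds of 3.42 to 8.10 and no peak in c-Kit+ KO replicate 2. Rarb, the receptor whose own promoter holds the DR5 element, had 2 peaks in all, the promoter peak in Thy1+ KO replicate 1 and an intron peak with a fold of 5.13 in c-Kit+ WT replicate 1.

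Of the 4 genes marked in all KO libraries, Aldh1a2 and Rara had promoter folds in all 4 adult libraries above all 4 spermatogonial ones, beside 23.1% of 9299 genes, and none had them below. In the fit of PS against c-Kit+ KO cells 6 of 12 tested regions passed adjusted p under 0.05 (limma), beside 31.9% of all 12501 regions. Of these, 2 were higher, where 6.83% of all regions were, and 4 lower, where 25.1% were. The median log2 change was -0.31 over the 12 regions and -0.17 over all. Centring removed a log2 shift of 1.08 between these groups, of 0.68 in adult against spermatogonial cells, -0.19 in RS against PS, 0.54 between genotypes in Thy1+ cells, -0.50 between c-Kit+ and Thy1+ KO cells and -0.22 in the difference of genotype effects. Without centring the calls over all regions went from 854 higher of 3992 to 8841 higher of 8940, and with quantile normalization to 386 of 784, so a direction here is relative to the median region. Without c-Kit+ KO replicate 2 no region of 16882 passed (limma; 5751 at unadjusted p under 0.05). In RS against PS 8 of 25 regions passed (limma), 5 higher and 3 lower, beside 20.2% of 21329 regions (12.4% higher, 7.79% lower), with medians of 0.07 and -0.08. Without centring 2220 of 5850 calls over all regions were higher, against 2648 of 4309. Without PS replicate 2 none of 26558 passed (limma; 6923 at unadjusted p under 0.05). In adult against spermatogonial KO cells 5 of 10 passed (limma), 2 higher and 3 lower, beside 40.6% of 10287 regions (12.8% higher, 27.8% lower), with a median of -0.12 over the 10 regions and over all. Without centring, 5132 of 5255 calls over all regions in that fit were higher, and 1697 of 3484 with quantile normalization, against 1318 of 4178. These 3 comparisons share libraries, and regions of a gene are not replicates.

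**Figure D4:**
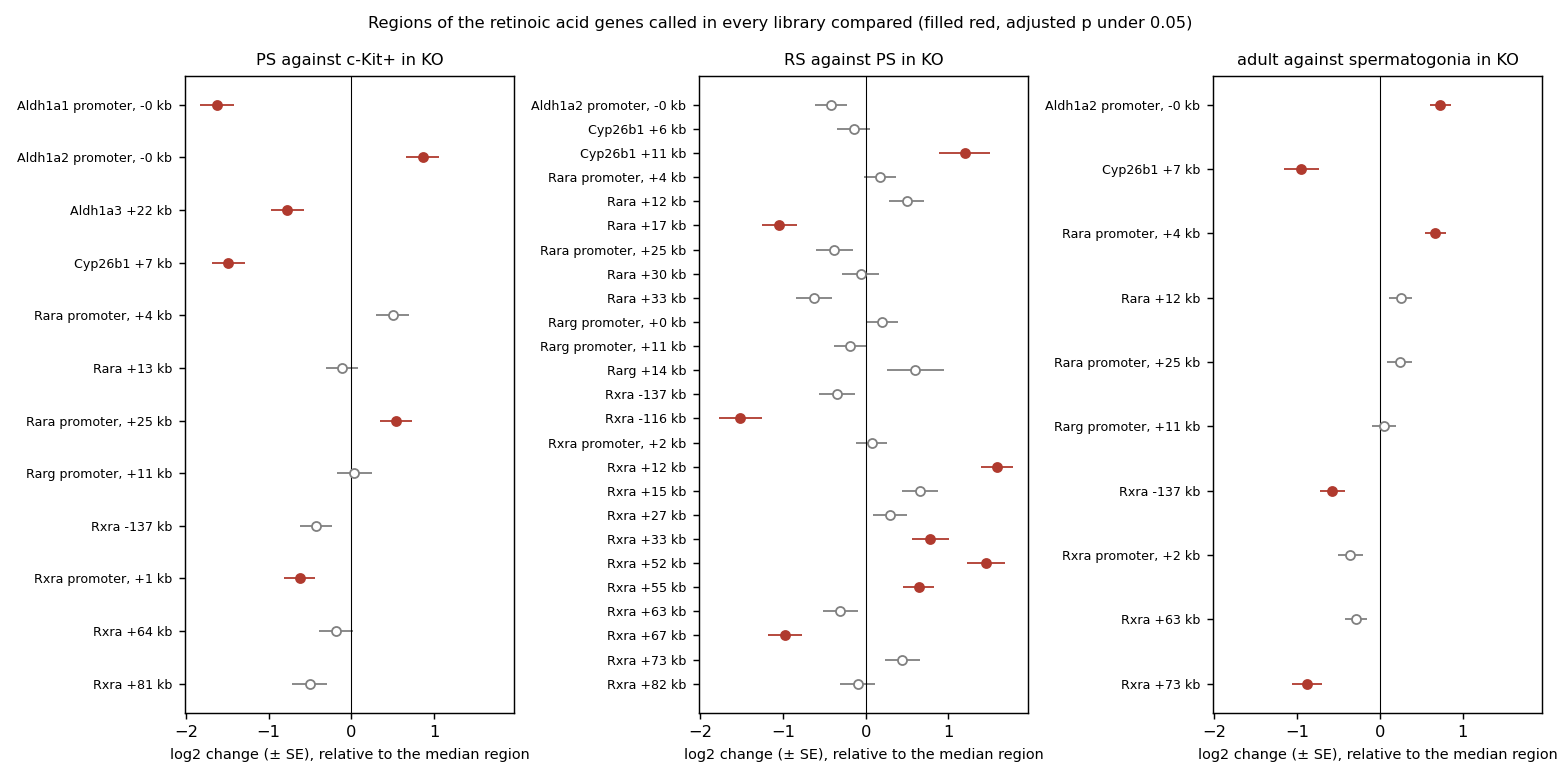
Log2 change of each tested region of the 10 genes relative to the median region (point, estimate; bar, SE), in the 3 stage comparisons of KO cells; filled red points passed adjusted p under 0.05 and labels give the distance of the region's centre from the gene's first start in kb. Aldh1a2 is to the right of 0 in PS against c-Kit+ (0.86) and in adult against spermatogonial cells (0.73), and Rxra regions lie on both sides in RS against PS (-1.51 to 1.59); without centring Aldh1a3 (0.30) and the Rxra promoter (0.45) in the first panel, the Rara (-0.019) and Rxra (-0.12) promoters in the second, and the Rxra promoter (0.32) and distant Rxra region (0.10) in the last change sign.

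The other retinoic acid genes were read from a list of 33. Of these, 23 had a promoter peak in some library, beside 84.3% of all genes, and 12 in all, beside 49.1%. The shares are not like for like. Lrat, Dhrs9, Adh4, Bco1, Stra6l and Cyp26c1 had no listed start, because no H3K27ac peak gave one under their symbol alone. They are counted as unmarked. Every gene behind the percentages had a start, and so a peak in some library. The 12 were all 8 coregulators, the receptor gene Rxrb, Rdh10 and Dhrs3, whose enzymes convert between retinol and retinaldehyde, and the alcohol dehydrogenase gene Adh5. In PS against c-Kit+ KO cells 0 of 15 rose and 1 fell, beside 6.83% and 25.1% of all regions. The gene that fell was Nrip1, a corepressor gene (-0.98 relative to the median region; limma, adjusted p = 0.0020). The Nrip1 folds before centring, 16.1 and 13.4 in c-Kit+ KO and 14.9 and 16.5 in PS, overlapped, and without centring the change was 0.094 and not called. In RS against PS 1 of 16 rose and 2 fell, beside 12.4% and 7.79% of all regions. Rec8, a meiotic cohesin gene, rose (0.92; limma, adjusted p = 0.045). Adh5 (-0.71; limma, adjusted p = 0.032) and Kit, the receptor gene used to sort c-Kit+ cells (-0.81; limma, adjusted p = 0.049), fell. With quantile normalization Adh5 (-0.60) and Kit (-0.90) were not called. In adult against spermatogonial KO cells 0 of 12 rose and 1 fell, beside 12.8% and 27.8% of all regions. The gene that fell was again Nrip1 (-0.99; limma, adjusted p = 4.5e-05), which without centring was -0.31 and not called. Its adult folds, 10.2 to 16.5, overlapped the spermatogonial ones, 12.8 to 22.3. The median over the list was -0.12, -0.14 and -0.15 in these fits.

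No region of the 10 genes passed the test between genotypes or between Thy1+ and c-Kit+ cells. For KO against WT, 0 of 12 tested regions in Thy1+ cells passed (limma), beside 0.00923% of 10835 regions, and none had an unadjusted p under 0.05. In c-Kit+ cells 0 of 16 passed (limma), beside 0% of 11313, with 3 at unadjusted p under 0.05. Those 3 were a Rarg region (0.55), a Rxra promoter region (-0.51) and the distant Rxra region (-0.63), all with a limma adjusted p of 0.94. For the difference of the genotype effects between stages 0 of 9 passed (limma), beside 0% of 9585, and none had an unadjusted p under 0.05. Over all regions 559, 543 and 453 had an unadjusted p under 0.05 in these fits. Aldh1a2 changed by 0.03 (SE 0.22) in Thy1+ and -0.19 (SE 0.22) in c-Kit+ cells, and the first Rara region by -0.30 (SE 0.22) in Thy1+ cells. Between c-Kit+ and Thy1+ cells 0 of 13 regions passed in WT (limma; 3 at unadjusted p under 0.05), beside 0.216% of 10177, and 0 of 12 in KO (limma; 1 at unadjusted p under 0.05), beside 0% of 11134, where 1255 had an unadjusted p under 0.05 (971 in WT). Changes of the 10 genes in these 5 fits ranged from -0.63 to 0.60, with SEs of 0.21 to 0.40, so differences of that size were not resolved with 2 libraries a group. The aldehyde dehydrogenase gene Aldh1a1, called in c-Kit+ and not in Thy1+ WT libraries, did not enter that fit because it was not called in every library compared. With uncalled libraries at their lowest value its change from Thy1+ to c-Kit+ was 0.61 (SE 0.26; limma, adjusted p = 0.27) in WT and 0.86 (SE 0.29; limma, adjusted p = 0.099) in KO.

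Across all 12 libraries 189 regions carried the names of the 10 genes. Of them 8 were called in every library (3 of Rara, 3 of Rxra and 1 each of Aldh1a2 and Rarg) and 100 in 1 library, beside 7.15% and 52.4% of all regions. In all, 91 were called only in adult and 50 only in spermatogonial libraries, where 62.3% and 16.3% of all regions were, and adult libraries held more peaks. Besides the upstream Rxra region above, 3 regions were called in all 4 adult and no spermatogonial libraries, as were 4.94% of all regions, and are named after their values were seen. They were chr11:98969548-98971771 in Rara, chr15:102242772-102243319 in Rarg and chr2:27703791-27704987 in Rxra.

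The genes whose promoter profile was most like that of a marked gene were ranked by Pearson's r of centred log2 promoter fold over the 12 libraries, among the 8749 genes marked in all. The points share their libraries and stages, and r is a description. For Aldh1a2 they were Nxt1 (r = 0.956) and Syngr4 and Tmem143, which have identical values (0.955). For Rara, Tbcc (0.893) and Stim1 (0.890) are given. For Rarg they were Wdr62 (0.945), Rassf1 (0.926) and Il3ra (0.920), and for Rxra Appl1 (0.868), with Nsun2 and Srd5a1, identical to each other, at 0.851. The fold of Nxt1 was 5.43 to 11.1 in spermatogonia, 21.7 and 30.9 in PS and 22.7 and 19.5 in RS, so its adult and spermatogonial values did not overlap either. Nxt1 was picked for its likeness to Aldh1a2 over these same libraries, so that separation is not a further result.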

How the data were processed

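H3K27ac was profiled in 12 libraries of mouse germ cells beside 16 inputs, 2 replicates a group, grouped by sample title. The submitters' processing notes name Bowtie, MACS2 and mm10, without versions. Each library was called on its own. Per the file headers, the deposited tables give signal height, fold enrichment as a ratio, and −log10 p-value and −log10 q-value at each summit, with the nearest gene. The deposited fold equals (height + 1) over (background + 1) with a uniform background, so no local or input control enters it, and depth is unknown.

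The highest summit stood for each peak, and chrM was left out. Peaks of the libraries compared that overlapped by at least 1 bp were merged. Regions called in every library compared were tested on log2 fold, centred on each library's median, with limma 3.58.1 (R 4.3.3), without a replicate block, at a Benjamini-Hochberg adjusted p under 0.05 over all regions. Regions that lack a peak in a library compared are not tested. The fit was tested on simulated data. Python 3.11.15 and pandas 2.3.3 did the rest.

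Named were all 10 genes, their regions called in 10 or more libraries, past the test or among the 3 longest called in both libraries of 1 group alone, listed pathway genes past the test or marked in all libraries, and the 3 genes most like each marked gene, of which 1 is not reported here. Members, lists and markers were chosen with earlier results of these data known. Alternatives were a replicate block, quantile normalization, no centring, −log10 q of at least 5, 50% overlap, uncalled libraries at their lowest value and leaving out each library.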

Additional observations from a re-analysis of the deposited data

How the results depend on the processing

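The number of regions past the test moved with several choices. For genotype in Thy1+ cells (1 region) it was 0 with a replicate block, quantile normalization or no centring, 9 with −log10 q of at least 5, 19 with uncalled libraries at their lowest value, and 0 to 91 when a library was left out (91 without KO replicate 2). For genotype in c-Kit+ cells it was 1 with the replicate block. For c-Kit+ against Thy1+ in WT (22 regions) it was 58 with the replicate block, 0 with quantile normalization, 2 without centring, 0 with −log10 q of at least 5, 9 with 50% overlap, 121 with uncalled libraries at their lowest value and 0 to 17 when a library was left out (0 without Thy1+ WT replicate 1 or c-Kit+ WT replicate 2, 5 without Thy1+ WT replicate 2); in KO (0 regions) it was 47 with the replicate block, 241 with uncalled libraries included and 0 to 878 (878 without Thy1+ KO replicate 2). For PS against c-Kit+ (3992) it was 784 with quantile normalization, 8940 without centring, 2013 with −log10 q of at least 5 and 0 to 4564 when a library was left out (2583 without PS replicate 2). For RS against PS (4309) it was 1982 with −log10 q of at least 5, 7022 with uncalled libraries included and 0 to 3402 (2816 without RS replicate 1), and for adult against spermatogonia (4178) 12268 with uncalled libraries included. Replicate numbers are shared in the titles, but deviations of same-numbered libraries correlated at -0.008 to 0.17, so the numbers were not taken as pairs. With the block, 2 called regions of the 10 genes lost their call, the second Rara region in PS against c-Kit+ (adjusted p = 0.058, limma) and chr2:27731013-27734318 of Rxra in RS against PS (0.052), and no other did. A left-out library leaves 1 in its group, assumed to vary like the other libraries of the fit. The cause of these shifts was not tested.

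Of the other values for single regions under an alternative, 239 kept their side of the threshold and direction, 51 lost and 9 gained the call, and 14 reversed. Without centring, reversals were Rxra (0.45) and Aldh1a3 (0.30) in PS against c-Kit+, Rara (-0.019) and Rxra (-0.12) at their promoters in RS against PS, and the distant Rxra region (0.10) and Rxra promoter (0.32) in adult against spermatogonia. With uncalled libraries included they were Rara (-0.021) and Rxra (-0.12) in RS against PS and Rarg (-0.14) in adult against spermatogonia. Without a single library they were Rarg in PS against c-Kit+ (-0.13 without c-Kit+ KO replicate 1, -0.045 without PS replicate 2, range -0.13 to 0.30), Rxra in RS against PS (-0.049 without PS replicate 2, range -0.049 to 0.11) and Rarg in adult against spermatogonia (-0.020 without Thy1+ KO replicate 2, -0.075 without c-Kit+ KO replicate 1, range -0.075 to 0.20). Aldh1a2 and the first Rara region in adult against spermatogonia kept their call under every alternative that gave a value. Promoter peaks were 40 to 51.7% of gene and library pairs under the alternatives.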
